A study of Arabidopsis thaliana with 5 samples.

Results

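The genes described here are 7 Arabidopsis genes of the dialogue between endosperm and embryo that ends in the embryo cuticle, out of 33602 genes in the table. They were chosen by name from what is known of the pathway, with earlier results of these data known. ZOU, ICE1, ALE1 and KRS, 4 genes, stand on the endosperm side, and TWS1, GSO1 and GSO2, 3 genes, on the embryo side. Poly(A) RNA levels of endosperm nuclei were measured in 5 libraries of seeds at 4 days after pollination (DAP). Of these, 2 came from Col × Ler seeds (replicates 2 and 3) and 3 from Ler × Col seeds (replicates 1, 2 and 3), with the mother written first.

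Both crosses were reciprocal hybrids of wild-type accessions that carried additional alleles. In Col × Ler, the mother was the male-sterile dde2 mutant in Col with the INT transgenes, and the pollen came from Ler. In Ler × Col, the mother was the male-sterile pistillata mutant in Ler, and the pollen came from the INT line in Col. The INT line carries PHE1::NTF, a nuclear envelope tag, and PHE1::BirA, which biotinylates the tag so that nuclei can be captured on streptavidin beads (INTACT). The nuclei were thus defined by the PHE1 promoter, and the tag came through the mother in Col × Ler and through the father in Ler × Col. Nuclei were purified from pooled siliques, so a library stands for a pool of seeds. By the paper's methods, first replicates were prepared from a larger mass of siliques than the later ones. The methods also set first replicates aside for their calculated contamination, yet state that 3 Ler × Col replicates were merged.

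ZOU (ZHOUPI) is a basic helix-loop-helix (bHLH) transcription factor of the endosperm, and ICE1, also called SCREAM, is the bHLH partner with which it forms a heterodimer. Both are needed for the breakdown of the endosperm around the growing embryo and for a continuous embryo cuticle. ALE1, a subtilisin-like protease made in the endosperm under the control of ZOU, cuts the precursor of TWS1, a sulphated peptide made in the embryo. The mature peptide is perceived by GSO1 and GSO2, leucine-rich repeat receptor kinases of the embryo epidermis, which report gaps in the cuticle. KRS (KERBEROS) is a small cysteine-rich secreted protein of the STIG1 family, made in the endosperm around the embryo, where it takes part in forming the embryo sheath.

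The libraries differed before any gene was compared. Depth, recovered approximately from the steps of low values, was about 12540000 and 26590000 reads in Col × Ler, against about 25550000, 20300000 and 28520000 reads in Ler × Col. Both libraries numbered 2 had many genes listed at 0, with 36.9% of genes in Col × Ler replicate 2 and 32.1% in Ler × Col replicate 2, while the other 3 libraries had 1.93% to 9.80%. Of 9361 protein-coding genes with at least 10 RPKM (reads scaled to gene length and library depth) in the other 3 libraries, 33 were listed at 0 in Col × Ler replicate 2 and 18 in Ler × Col replicate 2. An exact 0 there can be a failed estimate, and a gene at 0 is therefore called listed at 0. Ler × Col replicate 1 held the highest value of the 5 libraries for 46.9% of the 25579 tested genes, and its 10 embryo marker genes averaged 4.00 on the log2(RPKM + 1) scale. Those markers averaged 1.29 and 2.45 in Col × Ler, against 0.99 and 1.64 in the other Ler × Col libraries. The INTACT marker PHE1 stood at 38.1 and 29.7 RPKM in Col × Ler, against 33.9, 51.0 and 40.5 RPKM in Ler × Col. The 11 endosperm markers averaged 2.86 and 3.68 in Col × Ler, against 3.84, 2.51 and 3.45 in Ler × Col. The 13 seed coat markers averaged 2.06 and 4.03 in Col × Ler, against 4.09, 2.01 and 3.94 in Ler × Col. Markers of the embryo and the seed coat were thus measured in these libraries beside those of the endosperm. In bulk libraries of this kind, fewer nuclei of a type and less RNA per nucleus cannot be told apart.

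ZOU and ICE1 were among the most abundant transcripts of every library, ALE1 was lower than both in each library, and KRS, TWS1, GSO1 and GSO2 stayed at a few RPKM or less in most libraries. On the log2(RPKM + 1) scale, the means over the 5 libraries ran from ZOU at 8.61 ± 0.78 and ICE1 at 8.44 ± 0.95 through ALE1 at 4.02 ± 1.39 and TWS1 at 2.02 ± 2.24 to KRS at 1.17 ± 1.05, GSO1 at 1.06 ± 0.87 and GSO2 at 0.57 ± 0.61 (SD, n = 5). Neighbours in this order were compared within each library. ICE1 exceeded ALE1 in 5 of 5 libraries, by 4.42 ± 0.91, and GSO1 exceeded GSO2 in 5 of 5, by 0.49 ± 0.33. ZOU and ICE1 did not differ beyond their spread, with a difference of 0.17 ± 1.55 and ZOU the higher in 3 of 5 libraries. ALE1 against TWS1 differed by 2.00 ± 2.04, TWS1 against KRS by 0.86 ± 1.62 and KRS against GSO1 by 0.11 ± 0.52, so these neighbours could not be ordered at the spread of these libraries. These are levels that the authors scaled to gene length. The lengths used are not given and coverage of short against long genes was not examined, so comparisons between genes are approximate.

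**Figure D1:**
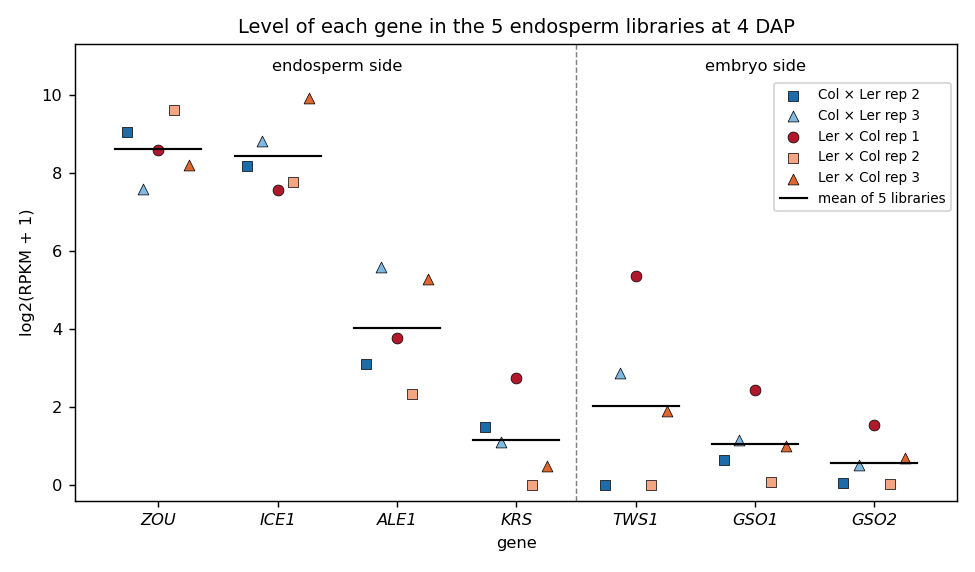
Level of each of the 7 genes, as log2(RPKM + 1), in the 2 Col × Ler and 3 Ler × Col libraries, with the mean of the 5 libraries as a line. ZOU and ICE1 lie highest in each library, and Ler × Col replicate 1 lies highest for KRS, TWS1, GSO1 and GSO2.

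ZOU (AT1G49770, chr1:18424578-18426782, plus strand, TAIR10.1, where RefSeq lists it as RGE1) has 3 exons. It was at 532 and 190 RPKM in Col × Ler (replicates 2 and 3), against 386, 777 and 291 RPKM in Ler × Col (replicates 1, 2 and 3). Among 26712 protein-coding genes it exceeded 98.3% to 99.6%, with a rank between 94 and 441 from the top. The crosses overlapped, with means of 361 ± 242 RPKM in Col × Ler (SD, n = 2) and 485 ± 257 RPKM in Ler × Col (SD, n = 3). The highest value in each cross was that of the library numbered 2.

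ICE1 (AT3G26744, chr3:9832667-9835279, minus strand), which outside the seed acts in stomatal development and the cold response, was at 286 and 448 RPKM in Col × Ler, against 186, 216 and 959 RPKM in Ler × Col. It exceeded 98.8% to 99.9% of protein-coding genes. The crosses overlapped, with means of 367 ± 115 RPKM in Col × Ler (SD, n = 2) and 454 ± 438 RPKM in Ler × Col (SD, n = 3). Here replicate 3 was highest in each cross, unlike for ZOU. The ratio of ZOU to ICE1 was 1.86 and 0.424 in Col × Ler, against 2.07, 3.60 and 0.304 in Ler × Col. ZOU exceeded ICE1 in the libraries numbered 1 and 2 and was exceeded by it in both libraries numbered 3.

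ALE1 (AT1G62340, chr1:23051002-23055672, minus strand) has 10 exons. It was at 7.65 and 47.2 RPKM in Col × Ler, against 12.7, 4.07 and 38.0 RPKM in Ler × Col. It was highest in both libraries numbered 3 and lowest in both numbered 2, and the crosses overlapped. The 5 libraries ranked by RPKM of ALE1 stood in the exact reverse of their order by ZOU, its known regulator. This is a description over libraries that also differ in depth and in genes listed at 0. By the share of protein-coding genes exceeded, the reversal was not exact. ALE1 exceeded 60.4% in Col × Ler replicate 2 and 64.7% in Ler × Col replicate 2, where ZOU exceeded 99.5% and 99.6%. The ratio of ZOU to ALE1 spanned 69.5 and 4.03 in Col × Ler, against 30.3, 191 and 7.66 in Ler × Col. The ratio of ICE1 to ALE1 varied less, with 37.4 and 9.50 in Col × Ler, against 14.6, 53.1 and 25.2 in Ler × Col.

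Within each cross, the library numbered 3 could be set against the library numbered 2. ALE1 in replicate 3 was 6.17 times its level in replicate 2 in Col × Ler and 9.34 times in Ler × Col, and ICE1 was 1.57 times its replicate 2 level in Col × Ler and 4.44 times in Ler × Col. ZOU was at 0.357 of its replicate 2 level in Col × Ler and at 0.375 in Ler × Col. Of all tested genes, 63% were higher in both libraries numbered 3 than in both numbered 2, as were 4 of the 6 tested genes of the pathway (ICE1, ALE1, TWS1 and GSO1), which is close to that background. Only 4.12% of the tested genes were lower in both libraries numbered 3, and ZOU was the 1 pathway gene among them. On the log2(RPKM + 1) scale the difference of replicate 3 from replicate 2 was -1.48 for ZOU in Col × Ler and -1.41 in Ler × Col, where the median of all tested genes was 0.73 and 1.26. For ALE1 it was 2.48 in Col × Ler and 2.94 in Ler × Col. In the same pairs the median difference of the seed coat markers was 1.94 in Col × Ler and 2.04 in Ler × Col, that of the endosperm markers 0.96 and 1.19, and that of the embryo markers 1.06 and 0.43. The part of library quality and of seed coat RNA in these differences was not tested.

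**Figure D2:**
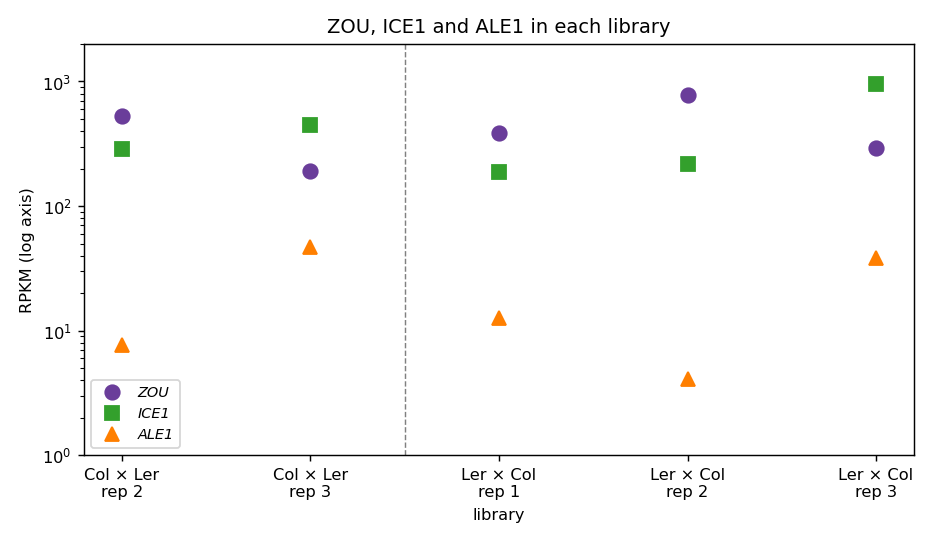
RPKM of ZOU, ICE1 and ALE1 (log axis) in each of the 2 Col × Ler and 3 Ler × Col libraries, with each point a library. In both libraries numbered 3, ZOU is lower and ALE1 higher than in the library numbered 2 of the same cross, and ZOU lies above ICE1 in replicates 1 and 2 but below it in replicates 3.

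KRS (AT1G50650, chr1:18763640-18764367, minus strand, 1 exon), the small secreted protein, was at 1.82 and 1.15 RPKM in Col × Ler, against 5.74 RPKM, listed at 0 and 0.40 RPKM in Ler × Col. These values amount to about 16.6 and 22.2 reads in Col × Ler, against about 107, 0 and 8.31 reads in Ler × Col. Such read numbers rest on RefSeq exon lengths, which can differ from the unstated lengths behind the RPKM. For a gene, they and the floor can thus be off by a common factor. For the library listed at 0, 3 reads would correspond to 0.203 RPKM, counting error only. Although ALE1 and KRS are both known to depend on ZOU, KRS was highest in Ler × Col replicate 1 and ALE1 in the libraries numbered 3.

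The windows upstream of ALE1, KRS and TWS1 are shown because bHLH factors such as ZOU and ICE1 bind E-boxes. The windows are the 250 bases before to 50 bases after the annotated gene start, on the strand of the gene, read from TAIR10.1 (RefSeq). The E-box was searched as CANNTG, which reads the same on both strands, and its matches stand in capitals. The G-box CACGTG is a special case of it. Of 27443 such windows, 61.7% held an E-box and 7.68% a G-box, so a match in a window is common. ALE1 lies at chr1:23055623-23055922, KRS at chr1:18764318-18764617 and TWS1 at chr5:27455-27754, all on the minus strand.
ALE1: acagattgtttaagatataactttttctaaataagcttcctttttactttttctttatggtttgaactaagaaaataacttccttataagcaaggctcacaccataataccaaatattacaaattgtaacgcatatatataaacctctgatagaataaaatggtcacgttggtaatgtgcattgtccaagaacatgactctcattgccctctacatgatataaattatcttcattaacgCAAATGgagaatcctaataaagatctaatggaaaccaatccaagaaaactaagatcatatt
KRS: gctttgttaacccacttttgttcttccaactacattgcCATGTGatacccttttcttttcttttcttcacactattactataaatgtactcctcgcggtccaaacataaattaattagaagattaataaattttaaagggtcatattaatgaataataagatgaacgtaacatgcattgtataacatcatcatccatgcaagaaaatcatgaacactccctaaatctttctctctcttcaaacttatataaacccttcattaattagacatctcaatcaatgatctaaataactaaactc
TWS1: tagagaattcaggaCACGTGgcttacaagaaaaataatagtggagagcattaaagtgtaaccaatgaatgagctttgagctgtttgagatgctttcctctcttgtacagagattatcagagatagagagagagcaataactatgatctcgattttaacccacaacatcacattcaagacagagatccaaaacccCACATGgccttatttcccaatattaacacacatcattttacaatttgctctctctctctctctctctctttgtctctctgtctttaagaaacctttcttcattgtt
ALE1 and KRS have 1 E-box each and TWS1 has 2, the first of them the G-box. The windows of ZOU and ICE1 held 0 matches and those of GSO1 and GSO2 held 2 each. A match describes the sequence only.

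TWS1 (AT5G01075, chr5:26848-27504, minus strand, 2 exons), the precursor of the embryo peptide, was listed at 0 and at 6.30 RPKM in Col × Ler, against 40.3 RPKM, listed at 0 and 2.70 RPKM in Ler × Col. The libraries with a value held about 96.2 reads in Col × Ler, against about 591 and 44.2 reads in Ler × Col. In the libraries listed at 0, 3 reads would correspond to 0.417 RPKM in Col × Ler and 0.257 RPKM in Ler × Col. TWS1 had the largest SD of the 7 genes on the log2 scale, 2.24 over the 5 libraries. Its level in Ler × Col replicate 1 was 14.9 times that in replicate 3 of the same cross. The ratio of ALE1, the protease, to TWS1, its substrate, was 7.49 in Col × Ler replicate 3, against 0.316 and 14.1 in Ler × Col replicates 1 and 3.

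GSO1 (AT4G20140, chr4:10883921-10888270, plus strand) was at 0.558 and 1.23 RPKM in Col × Ler, against 4.37, 0.0492 and 1.01 RPKM in Ler × Col. GSO2 (AT5G44700, chr5:18032864-18037323, minus strand) was at 0.0404 and 0.438 RPKM in Col × Ler, against 1.89, 0.0250 and 0.631 RPKM in Ler × Col. In RPKM, both receptor genes were highest in Ler × Col replicate 1 and lowest in the libraries numbered 2. By the share of protein-coding genes exceeded, both were highest in Col × Ler replicate 2, GSO1 with 32.2% and GSO2 with 26.9%. By that share both were lowest in Ler × Col replicate 1, with 18.3% and 5.72%. The highest value of GSO2 rested on about 212 reads, and both of its lowest values on about 2.22 reads. GSO1 exceeded GSO2 by 13.8 and 2.81 times in Col × Ler, against 2.31, 1.97 and 1.60 times in Ler × Col, with the ratios of the libraries numbered 2 resting on few reads. The receptors share exonic runs of at most 29 identical bases, shorter than the reads of 125 bases. GSO1 overlaps the gene AT4G20150 on the opposite strand over 337 exonic bases. Whether the counting used strand is not given in the sources used here, so reads in the overlap cannot be assigned. AT4G20150 was at 28.2 and 72.5 RPKM in Col × Ler, against 48.4, 32.2 and 91.6 RPKM in Ler × Col. It was highest in Ler × Col replicate 3 and lowest in Col × Ler replicate 2, whereas GSO1 was highest in Ler × Col replicate 1 and lowest in Ler × Col replicate 2.

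Endosperm-side genes averaged higher than embryo-side genes in all 5 libraries, although single genes crossed (TWS1 exceeded ALE1 in Ler × Col replicate 1). The genes were chosen with earlier results of these data known, so the difference between the sides is a description. The mean log2(RPKM + 1) of ZOU, ICE1, ALE1 and KRS was 5.46 and 5.77 in Col × Ler, against 5.67, 4.93 and 5.97 in Ler × Col. That of TWS1, GSO1 and GSO2 was 0.23 and 1.52 in Col × Ler, against 3.11, 0.03 and 1.2 in Ler × Col. The difference between the sides was 5.23 and 4.25 in Col × Ler, against 2.56, 4.89 and 4.77 in Ler × Col. Its mean was 4.74 ± 0.69 in Col × Ler (SD, n = 2) and 4.07 ± 1.31 in Ler × Col (SD, n = 3), so the crosses overlapped. The smallest difference was that of Ler × Col replicate 1, and without it the mean over 4 libraries was 4.78 ± 0.40, against 4.34 ± 1.05 over 5. The endosperm side also includes KRS, whose mean over the 5 libraries lay between those of TWS1 and GSO1. In single libraries KRS lay above all 3 embryo-side genes in Col × Ler replicate 2 and below all 3 in Ler × Col replicate 3.

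In Ler × Col replicate 1, the embryo-side genes and KRS had a higher RPKM than in replicate 3 of the same cross. On the log2(RPKM + 1) scale the differences were 3.48 for TWS1, 2.27 for KRS, 1.42 for GSO1 and 0.83 for GSO2. In the same pair of libraries ICE1 differed by -2.36, ALE1 by -1.51 and ZOU by 0.41. The median difference was 2.77 for the embryo markers, -0.13 for the endosperm markers, 0.31 for the seed coat markers and 0.32 for all tested genes. Against Col × Ler replicate 3, the differences were 2.50 for TWS1, 1.65 for KRS, 1.27 for GSO1 and 1.01 for GSO2, with -1.26 for ICE1 and -1.81 for ALE1. The share of protein-coding genes exceeded was higher in Ler × Col replicate 1 than in replicate 3 for TWS1 (92.0% against 36.6%) and KRS (25.6% against 13.0%). It was lower for GSO1 (18.3% against 23.6%) and GSO2 (5.72% against 17.7%), so these receptor genes did not rise in rank there. The embryo marker STM, a shoot meristem homeobox gene, was listed at 0 and at 11.9 RPKM in Col × Ler, against 39.5, 1.70 and 4.60 RPKM in Ler × Col. Of the 10 embryo markers, 9 were highest in Ler × Col replicate 1, and WOX8 was the exception. WOX8, a homeobox gene of the basal embryo lineage and the embryo marker with the highest mean, was at 65.4 and 119 RPKM in Col × Ler, against 24.2, 23.6 and 103 RPKM in Ler × Col. The summed RPKM of the 10 markers was 74.8 and 153 in Col × Ler, against 199, 30.1 and 116 in Ler × Col, and WOX8 made up most of it in each library except Ler × Col replicate 1. Of them, 3 were listed at 0 in Col × Ler replicate 2 and 4 in Ler × Col replicate 2, and 0 in the other 3 libraries. By the paper's methods, first replicates had a larger silique mass and were set aside for their calculated contamination. The parts of embryo RNA, contamination and silique mass in the levels of TWS1, GSO1, GSO2 and KRS were not tested. Of the 6 tested pathway genes, 3 (KRS, TWS1 and GSO1) were highest in Ler × Col replicate 1, against 46.9% of all tested genes.

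**Figure D3:**
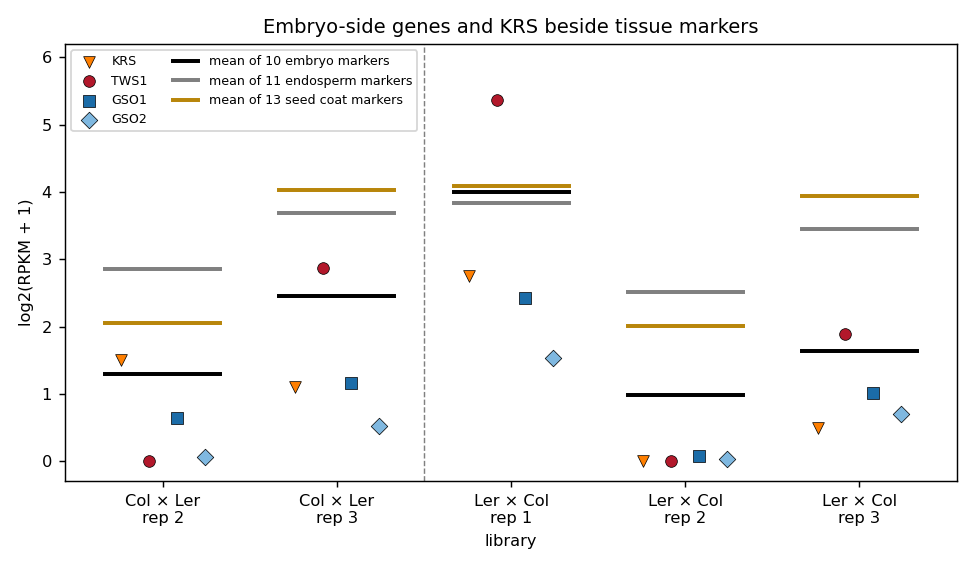
Level of KRS, TWS1, GSO1 and GSO2 in each library, as log2(RPKM + 1), with the mean level of 10 embryo, 11 endosperm and 13 seed coat markers as lines (2 Col × Ler and 3 Ler × Col libraries). All 4 genes are highest in Ler × Col replicate 1, where the embryo markers average 4.00.

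No gene of the pathway passed the test between the crosses. A limma fit across 25579 genes on log2(RPKM + 1) called 1 gene higher in Col × Ler and 1 lower at an adjusted p of 0.05, which is 0.00391% of tested genes in each direction, and 266 had an unadjusted p under 0.05. Of the 6 pathway genes tested, 0 were called and 0 had an unadjusted p under 0.05, and all had a Benjamini-Hochberg adjusted p of 0.999966 in limma. The log2 fold changes, Col × Ler over Ler × Col, were -0.48 for ZOU (SE 0.88), 0.08 for ICE1 (SE 0.86), 0.55 for ALE1 (SE 0.89), 0.22 for KRS (SE 1.27), -0.98 for TWS1 (SE 1.30) and -0.27 for GSO1 (SE 1.26). For the low genes these values depend on the pseudocount, and with 0.1 in place of 1 they were 1.22 for KRS, -1.49 for TWS1 and 0.05 for GSO1. The 95% intervals were wide, from -2.21 to 1.25 for ZOU, from -1.61 to 1.78 for ICE1 and from -1.19 to 2.29 for ALE1, and reached -3.53 for TWS1. Changes of 2-fold or more in either direction could therefore not be excluded for any of the 6 genes. GSO2 reached 1 RPKM in 1 library and was not tested. None of the 7 genes had values that did not overlap between the crosses, against 6.17% of tested genes higher in Col × Ler without overlap and 1.92% lower. Leaving out a single library turned the sign for each of the 6 genes, for ZOU only without Col × Ler replicate 3 (0.26).

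**Figure D4:**
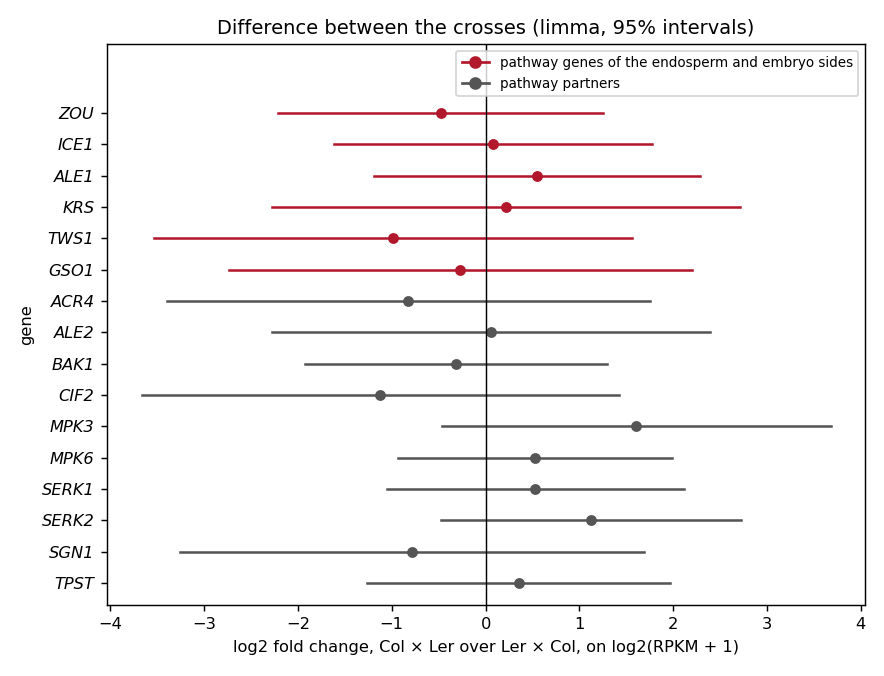
Difference between the crosses for the 6 tested pathway genes and 10 partner genes, as the log2 fold change of Col × Ler over Ler × Col on log2(RPKM + 1), with 95% intervals from limma (2 and 3 libraries). Every interval spans 0.

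The partners of the pathway were tested in the same fit. Of 11 genes, 10 were tested, 0 were called by limma in either direction, and 6 had a positive log2 fold change, with a median of 0.21 beside 0.10 for all tested genes. MPK6, a mitogen-activated protein kinase that acts downstream of GSO1 and GSO2 in the embryo, had the highest mean, with 78.3 and 48.9 RPKM in Col × Ler, against 49.6, 38.4 and 41.0 RPKM in Ler × Col. The crosses overlapped for it. MPK3, its close relative, was at 11.6 and 24.4 RPKM in Col × Ler, against 3.90, 2.39 and 11.2 RPKM in Ler × Col. The crosses did not overlap, and the log2 fold change was 1.61 with a 95% interval from -0.47 to 3.68 (limma adjusted p = 0.999966). Of all tested genes, 6.17% were higher in Col × Ler without overlap and 1.92% lower. MPK3, CIF2, ICE2, TPST, ACR4, LACS2, MYB16, PHE1, STM, WOX8 and the stomatal bHLH genes are named here after their values were seen. CIF2, a sulphated peptide that GSO1 perceives in the root, was listed at 0 and at 1.71 RPKM in Col × Ler, against 3.28, 2.78 and 1.85 RPKM in Ler × Col. It was thus lower in Col × Ler without overlap, like 1.92% of all tested genes, and its value listed at 0 can be a failed estimate. CIF1, its paralogue, was listed at 0 in 3 libraries and reached 0.947 RPKM in Ler × Col replicate 1. TPST, the enzyme that sulphates tyrosines of such peptides, was at 17.2 and 37.0 RPKM in Col × Ler, against 25.9, 8.49 and 33.4 RPKM in Ler × Col. ACR4, an epidermal receptor kinase, was at 0.470 and 2.75 RPKM in Col × Ler, against 15.7, 0.435 and 1.99 RPKM in Ler × Col, and was highest in Ler × Col replicate 1 like 6 of the 11 partners, against 46.9% of all tested genes.

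Unlike ZOU, the bHLH genes ICE2, SPCH, MUTE and FAMA lay well below ICE1. ICE2, its paralogue, had the highest mean of the 4 bHLH genes at 10.5 ± 6.49 RPKM (SD, n = 5), while ICE1 averaged 419 ± 319 RPKM (SD, n = 5). ICE2 was at 21.1 and 11.6 RPKM in Col × Ler, against 7.17, 4.33 and 8.09 RPKM in Ler × Col (log2 fold change 1.18, SE 1.02, limma adjusted p = 0.999966). It was higher in Col × Ler without overlap, like 6.17% of all tested genes. ICE1 and ICE2 share exonic runs of at most 31 identical bases. SPCH, MUTE and FAMA are the stomatal partners of ICE1. SPCH was listed at 0 and at 3.16 RPKM in Col × Ler, against 23.6 RPKM, listed at 0 and 1.95 RPKM in Ler × Col. MUTE and FAMA too were highest in Ler × Col replicate 1. Of the 4 genes, 0 were called by limma and 1 had a positive fold change, with a median of -0.59.

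KRS was not the only low gene of its family. Of 5 STIG1-like genes, 3 were tested and 0 called by limma, with 1 positive fold change and a median of -0.58. AT5G55110 had the highest mean. It was listed at 0 and at 1.38 RPKM in Col × Ler, against 11.9, 0.200 and 0.285 RPKM in Ler × Col. Of the 5 genes, 4 were highest in Ler × Col replicate 1, against 46.9% of all tested genes.

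The genes that build the cuticle were measured as a list of 18. Of them 17 were tested, 0 were called by limma and 11 had a positive fold change, with a median of 0.31. FDH, a fatty acid elongase of the epidermis, had the highest mean, with 29.4 and 78.7 RPKM in Col × Ler, against 72.3, 6.95 and 52.5 RPKM in Ler × Col. SHN1, a regulator of cuticular wax and cutin genes, was listed at 0 in 3 libraries. It was at 0.987 RPKM in Col × Ler replicate 3, against 14.7 RPKM in Ler × Col replicate 1, and was not tested. Of the 18 genes, 10 were highest in Ler × Col replicate 1, against 46.9% of all tested genes. LACS2 and MYB16 were higher in Col × Ler without overlap between the crosses, against 6.17% of all tested genes, and 0 were lower without overlap, against 1.92%.

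The genes whose pattern over the 5 libraries was most like that of ZOU, ALE1 or TWS1 were found among 16329 genes with a mean of at least 5 RPKM. Likeness was the root mean square difference of log2(RPKM + 1) after each gene's own mean was subtracted. For ZOU they were ARL1 (AT1G24120, 0.077), the transcribed pseudogene AT3G31161 (0.085) and AT2G03140 (0.094). ARL1 was at 116 and 44.6 RPKM in Col × Ler, against 85.7, 188 and 60.3 RPKM in Ler × Col. For ALE1 they were AT4G35360 (0.077), AT4G25290 (0.10) and AT2G04690 (0.13). AT4G35360 was at 5.55 and 35.6 RPKM in Col × Ler, against 10.3, 3.28 and 27.7 RPKM in Ler × Col. For TWS1 they were AT1G06840 (0.062), CBL6 (AT4G16350, 0.094) and VATG3 (AT4G25950, 0.11). By the same measure no pathway gene was close to ZOU, the nearest being GSO2 at 1.05 and the farthest TWS1 at 2.45. ALE1 lay at 0.81 from ICE1 and at 1.93 from ZOU, and TWS1 at 1.27 from GSO1. With 5 libraries that differ in depth and in the share of genes listed at 0, these distances are a description.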

How the data were processed

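RNA of INTACT-purified endosperm nuclei at 4 DAP was measured in 5 libraries, 2 of Col × Ler and 3 of Ler × Col. The authors deposited 1 table of RPKM values per gene and library. The submitters' processing notes name TopHat2 2.1 and TAIR10, and the counter, gene lengths and use of strand are not given in the sources used here. Poly(A) RNA was sequenced as paired reads of 125 bases. Columns were assigned to samples by their names, with 0 columns left over. Replicate numbers follow the column names and sample descriptions, since titles number the Col × Ler libraries differently. Labels do not say that numbers mark shared plants or days, so libraries were treated as unpaired. The p-values rest on a spread between these libraries that limma pooled over genes of like mean level, not on each gene's own spread. By the study's methods, first replicates were set aside for contamination, yet 3 Ler × Col replicates were merged, so all 5 libraries were kept.

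Gene positions came from the TAIR10.1 RefSeq annotation, which matched 32835 of 33602 genes. Depth and read numbers are approximate. They were recovered from low RPKM values of tRNA genes (fewer than 20 reads, whole within 0.03) and exon lengths, and floors of 3 reads cover counting error only. The lengths behind the RPKM are not given, so read numbers and floors of a gene can be off by a common factor. RPKM values are not counts. Genes with at least 1 RPKM in at least 2 libraries were therefore compared after a log2 transform with a pseudocount of 1. The test was that of limma 3.58.1 in R 4.3.3 with the trend option, and a gene was called when its p, adjusted by Benjamini-Hochberg, lay under 0.05. The fit was run on simulated data as a check of the code, which does not measure its power on these libraries. Tables were handled with Python 3.11.15, pandas 2.3.3 and NumPy 2.4.6. Alternatives were other pseudocounts, filters, normalizations, no variance trend, replicate blocks and leaving out libraries.

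The genes and lists were chosen with earlier results of these data known. Named genes were the 7 pathway genes, in each of the lists of partners, bHLH genes, STIG1-like genes and cuticle genes (not the marker lists) the genes with the highest mean, called, or listed at 0 in at least 3 libraries, and the 3 genes most like ZOU, ALE1 and TWS1 with a mean of at least 5 RPKM.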

Additional observations from a re-analysis of the deposited data

How the results depend on the processing

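No pathway gene that could be tested was called between the crosses under any of the 15 alternatives. With at least 1 RPKM in all 5 libraries, KRS, TWS1 and GSO1 were not tested, and GSO2 was tested only without a filter (log2 fold change -0.47). The lowest adjusted p of any of the 6 tested genes was 0.949 and the lowest unadjusted p was 0.0433, for TWS1 (limma). The number of genes called higher and lower in Col × Ler over all genes, 1 and 1, was 4 and 3 with a pseudocount of 0.1, 5 and 1 with a pseudocount of 5, and 5 and 1 with at least 1 RPKM in all 5 libraries. It was 0 and 0 without a filter, with quantile normalization, with median scaling and without the variance trend. Unadjusted p-values under 0.05 then numbered 155, 476, 473 and 171. Leaving out 1 library gave between 0 and 83 higher and between 0 and 12 lower calls. The highest number of higher calls came without Ler × Col replicate 3, and 0 calls came without Col × Ler replicate 2 or Ler × Col replicate 1, with 92 and 199 unadjusted p-values under 0.05. Leaving out both libraries numbered 2, chosen after the data were seen, gave 0 and 0 calls, with 109 unadjusted p-values under 0.05.

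A replicate block by the numbers of the descriptions gave 77 higher and 9 lower calls, and a block by the title numbers gave 1 and 1. Deviations of same-numbered libraries correlated at 0.29 over genes by the descriptions and at -0.41 by the titles. The labels do not pair the libraries. Under the block by descriptions the log2 fold change was -0.35 for ICE1, 0.49 for TWS1 and 0.36 for GSO1, and under the block by titles it was -0.077 for KRS, each opposite in sign to the value without a block. Ler × Col replicate 1 was alone in its block by descriptions, and Ler × Col replicate 3 by titles. These fold changes therefore equal those with that library left out and are not separate results.

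Signs turned elsewhere too. GSO1 was at 0.05 with a pseudocount of 0.1 and 0.16 with quantile normalization, and ICE1 at -0.43 with quantile normalization and -0.35 with median scaling. KRS was at -0.032 with a pseudocount of 5 and -0.52 without both libraries numbered 2. The median over all tested genes was 0.10, 0.02 with quantile normalization and -0.19 with median scaling. With 1 library left out, the log2 fold change ran from -1.22 to 0.26 for ZOU, -0.35 to 0.83 for ICE1, -0.69 to 1.79 for ALE1, -0.32 to 1.06 for KRS, -2.42 to 0.49 for TWS1 and -0.82 to 0.36 for GSO1. The sign turned for ZOU without Col × Ler replicate 3, for ICE1 without that library or Ler × Col replicate 1 or 2, and for ALE1 without Col × Ler replicate 3 or Ler × Col replicate 2. It turned for KRS without Ler × Col replicate 2 or 3, for TWS1 without Col × Ler replicate 2 or Ler × Col replicate 1, and for GSO1 without Ler × Col replicate 1. The cause was not tested.

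The difference between endosperm-side and embryo-side levels, 4.34, was 5.47 with a pseudocount of 0.1 and 3.24 with a pseudocount of 5, and lay between 3.38 and 5.0 under the other 9 alternatives. Few reads stood behind the low values of GSO1 and GSO2, with about 4.27 and 2.22 in Ler × Col replicate 2.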
